A study of Mus musculus with 2 samples.

Results

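The regions described here are peaks of Prrc2a RIP-seq that lay over the stop codon of a protein-coding transcript and were seen in both replicates. RIP-seq sequences the RNA that comes down with a protein, here with an antibody to Prrc2a, and the samples were 2 replicates of whole brain from male mice, 4 weeks old, of the strain C57BL/6J and of wild type genotype. Both replicates belong to 1 condition without a transgene, deletion or treatment, and the protocol describes 3 pooled brains in 1 lysate without saying how they were divided between the replicates. Replicate 1 held 18129 peaks and replicate 2 held 18671, each with a position and a fold enrichment over a control library that is not named, and without a strand, a summit or a gene. A replicate 1 peak was taken when it overlapped a replicate 2 peak by at least 1 bp, overlapped an annotated stop codon (GENCODE mouse release 21, GRCm38), and did not overlap a start codon. Each was given to the coding gene with the most exon bases under it. This chose 818 peaks in 787 genes, which is 9.77% of the 8372 shared peaks and 3.59% of the 21951 protein-coding genes.

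The stop codon ends the reading frame. A terminating ribosome recognises UAA, UAG or UGA there with release factors, and the 3′ UTR begins just behind it. In mammalian mRNA the neighbourhood of the stop codon, often at the start of a long last exon, is known as the place where N6-methyladenosine (m6A) is most dense, and m6A is written at DRACH sites, of which GGAC is the common core. Prrc2a is a large protein described as binding such methylated RNA. No methylation was measured in these files, so the motif counts given further on count letters and not modified bases.

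The stop codons under the most enriched peaks are shown first, because they place each peak on its transcript. Each run is 27 bases of GRCm38 read on the strand of the gene, with the stop codon in capitals, 12 bases of coding sequence before it and 12 bases of 3′ UTR after it. The first set holds the most enriched members and the member of the m6A machinery list, without those for which no sequence is given.
Hist1h1a (chr13:23764344-23764370, plus strand): cccaagaaaaagTGAacagttggaggc
H2-T24 (chr17:36006724-36006750, minus strand): gaagagaggctcTAGgacaggacccag
Fat4 (chr3:39010828-39010854, plus strand): gaacagtatgtgTGAggtgtatgtgtg
Tnfrsf11a (chr1:105844852-105844878, plus strand): caatgtgcagaaTGAcctcaccttctc
Kcnb2 (chr1:15711615-15711641, plus strand): gagaccagcatgTGAcaaaagcaataa
Znrf3 (chr11:5279712-5279738, minus strand): ggtacgggagctTGAgctcaaaaggaa
Frem2 (chr3:53516520-53516546, minus strand): agctcggaggtgTGAtggccttctctt
Rbm15b (chr9:106884292-106884318, minus strand): agggacaccgccTAGcccgcacctgtg
UGA ended 6 of these 8 reading frames and UAG the other two. Within 100 bases of the stop codon, GGAC occurred 5 times in H2-T24, 3 times in Tnfrsf11a and not at all in Hist1h1a and Kcnb2, so a high enrichment was found with and without this core nearby.

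The second set holds the 10 immediate early genes with a stop codon peak, neuronal genes that are switched on within minutes of activity. It was added after their values were seen, as the list with the highest share of genes with such a peak.
Nr4a3 (chr4:48083338-48083364, plus strand): accctgcctttcTGAgcaggggaagcc
Fosl2 (chr5:32153175-32153201, plus strand): cttctagccctgTAAccctgtgctcct
Fosb (chr7:19304829-19304855, minus strand): cttcttgctctgTAAactctttagaca
Nr4a2 (chr2:57108144-57108170, minus strand): accttacctttcTAAgaccttctccca
Fos (chr12:85476444-85476470, plus strand): ctgctggccctgTGAgcagtcagagaa
Homer1 (chr13:93402215-93402241, plus strand): ctggaatgcagcTAAagagagtgaaat
Egr3 (chr14:70079891-70079917, plus strand): accacctgcgccTGAggatccggcacc
Egr4 (chr6:85511628-85511654, minus strand): ttcgccgcgctgTAAccggagctggcc
Arc (chr15:74671170-74671196, minus strand): acccagcctgaaTAGaggggccagccc
Jun (chr4:95050255-95050281, minus strand): ttgcaaacgtttTGAgaacagactgtc
UAA ended 5 of these reading frames, UGA 4 and UAG, in Arc, the remaining 1. GGAC occurred 2 times within 100 bases of the stop codon in Fosl2 and Arc, and was absent from that window in Fos, Egr3, Egr4 and Jun.

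Along the transcript, peak coverage was higher around the stop codon than on either side of it. This was read on 6060 reference transcripts with at least 1000 coding bases and 1000 bases of 3′ UTR, without choosing any peak by its position. A replicate 1 peak lay over the stop codon of 11.1% of these transcripts, over 9.57% of them at 500 bases upstream and over 9.04% at 500 bases downstream. In replicate 2 the shares were 13.3% at the stop codon, 10.1% upstream and 12.0% downstream. The excess of the stop codon over the upstream position was 1.49 and 3.14 percentage points in replicates 1 and 2 (2.31 ± 1.17, SD, n = 2), and the excess over the downstream position was 2.01 and 1.24 points (1.63 ± 0.548). Both differences had the same sign in both replicates, but with 2 replicates of 1 condition no test could be made.

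The most covered position lay just inside the 3′ UTR. It was 50 bases downstream of the first base of the stop codon in replicate 1 and 150 bases downstream in replicate 2, and for stretches covered in both replicates it was 150 bases. At 150 bases, 11.5% of transcripts were covered in replicate 1, 14.2% in replicate 2 and 7.36% in both. Beyond it replicate 1 fell back to 8.68% at 1000 bases downstream, below its share of 9.95% at 1000 bases upstream, while replicate 2 was at 11.2% and 11.6%. The rise at the stop codon was therefore small beside the coverage of the whole transcript: these peaks also lie widely over coding sequence and 3′ UTR.

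**Figure D1:**
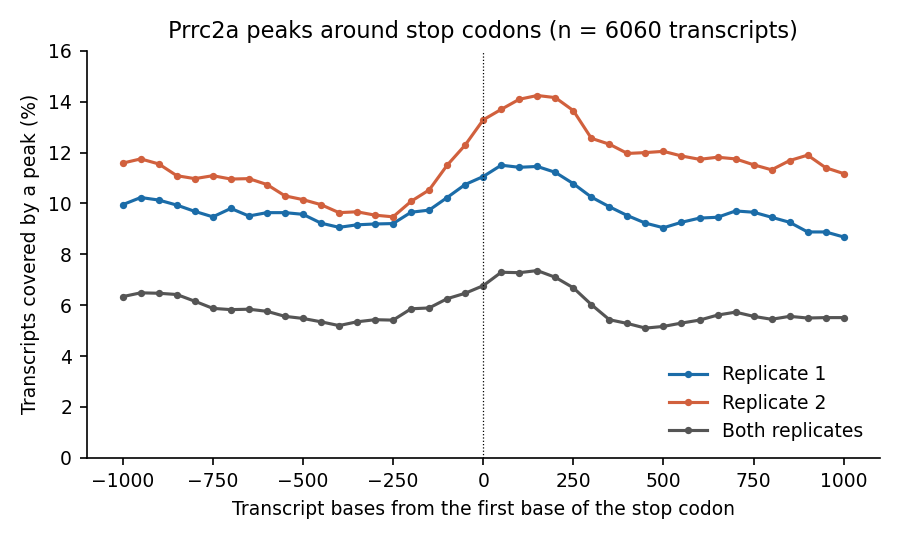
Share of 6060 reference transcripts (y axis, percent) with a peak at each position from 1000 bases upstream to 1000 bases downstream of the stop codon (x axis, bases), for replicate 1, replicate 2 and stretches covered in both. All curves are highest between 50 and 150 bases downstream, and the curve for both replicates reaches 7.36% there.

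The chosen peaks were wide. Their median width was 809 bp (quartiles 473 and 1463.5) against 468 bp for all shared peaks of replicate 1, and 39.6% of them were wider than 1000 bp against 17.6% of shared peaks. The rule itself favours width, since a long peak reaches a stop codon more readily: among shared peaks in exons, 5.88% of the 2617 that were 200 to 400 bp wide were chosen, 8.61% of the 2914 between 400 and 800 bp, 19.5% of the 1203 between 800 and 1600 bp and 30.5% of the 583 that were wider still. Width must therefore be held in view in every comparison with other shared peaks.

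By their medians, the chosen peaks reached somewhat further into the 3′ UTR than into the coding sequence. A median of 244 coding bases and 333.5 bases of 3′ UTR lay under the replicate 1 peak, and 214.5 and 248.5 under the replicate 2 peak with the largest overlap. The midpoint of the exonic part was a median 44.5 bases downstream of the stop codon in replicate 1 (quartiles −118.75 and 225.5) and 15.5 bases downstream in replicate 2 (quartiles −193.25 and 241.5). It lay downstream in 460 peaks (56.2%) and upstream in 352 (43.0%), and within 100 bases in 260 (31.8%). The 3′ UTR was mostly not filled: its median covered share was 18.6%, and 78 peaks (9.54%) reached the annotated 3′ end.

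**Figure D2:**
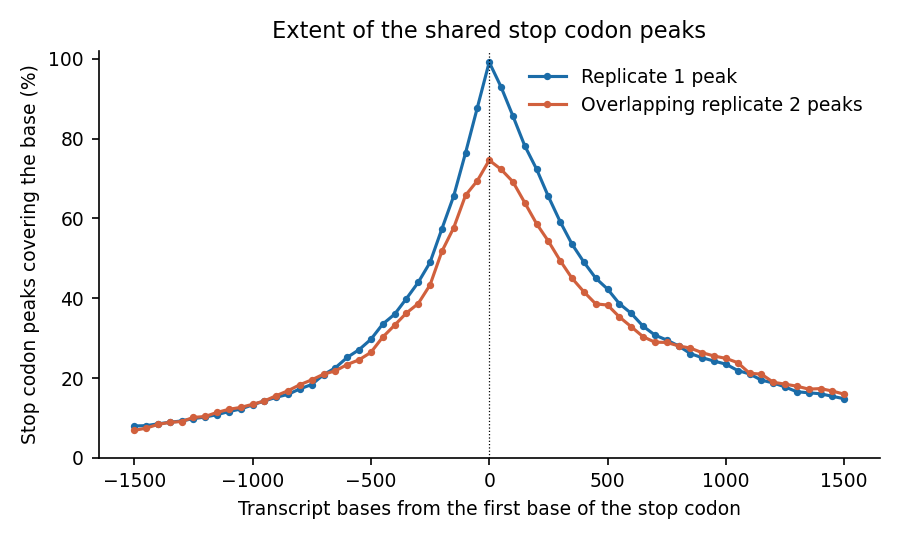
Extent of the 818 peaks around the stop codon, in transcript bases, in replicate 1 and in the replicate 2 peaks that overlap them. Replicate 1 coverage is 99.1% at the stop codon by the choice of the peaks, while replicate 2 coverage, on which the stop codon rule was not applied, is 74.6% there, 43.3% at 250 bases upstream and 54.3% at 250 bases downstream.

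The stop codons were in most cases the principal ones of their genes. An APPRIS principal transcript, the isoform that annotation ranks as the main product, ended under 741 peaks (90.6%), and 794 peaks lay over 1 annotated stop codon only. The exon that holds the stop codon contained 452 peaks (55.3%) entirely. More than 100 bases lay outside the exons of the reference transcript in 130 (15.9%), whether or not another isoform has an exon there. An exon of a gene on the opposite strand was also touched by 57 (6.97%). Without a strand in the lists, such peaks cannot be told apart from peaks on the other transcript. For 7 peaks the gene with the most exon bases was not the gene that owns the stop codon, and 3 lay over the stop codons of 2 coding genes, such as Evi5l and Prr36.

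Where peaks of both replicates touched, most of the stop codons under the replicate 1 peak were also covered in replicate 2. The rule asked only that the peaks touch, which leaves out peaks without a partner, and in 612 of 818 cases (74.8%) a touching replicate 2 peak also lay over the same stop codon. Read from replicate 2, 620 of 787 such peaks (78.8%) had the stop codon under a replicate 1 peak, which gives 76.8% ± 2.80 (SD, n = 2 directions). In the remaining 206 cases the replicate 2 peak lay upstream of the stop codon in 82 and downstream in 79. It lay on both sides with a gap over it in 38 and outside the exons of the reference transcript in 7. The misses were thus about equally frequent on the coding and the 3′ UTR side.

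Peaks over stop codons were found again in the other replicate more often than peaks in general. Of the 1090 replicate 1 peaks over a stop codon and no start codon (6.01% of the list), 75% overlapped a replicate 2 peak, where 46.2% of all replicate 1 peaks and 61.3% of those in exons did. In replicate 2, 1295 peaks (6.94%) met the stop codon rule, of which 60.8% overlapped a replicate 1 peak against 47.8% of the whole list. The share for replicate 2 peaks in exons was not computed, so the excess over exonic peaks was read in replicate 1 only. Wide peaks overlap more readily as well, and the part of width in these shares was not tested. The 272 replicate 1 peaks over a stop codon that touched no replicate 2 peak were narrower, at a median of 357 bp, and their median fold enrichment was 2.32 beside 2.26 for the chosen peaks.

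Among genes, 1043 had a stop codon under a replicate 1 peak and 1249 under a replicate 2 peak. The 582 genes common to both were 55.8% of the first list and 46.6% of the second. Of the 2558 genes with any shared exonic peak (11.7% of coding genes), 30.8% had one of the chosen peaks. A further 107 shared peaks lay over a stop and a start codon together and were left out, with a median width of 1787 bp; 18 of them were in histone genes, whose transcripts are short enough for 1 peak to span them.

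Fold enrichment of the chosen peaks was moderate, with a median of 2.26 in replicate 1 (quartiles 1.87 and 2.96). The replicate 2 value was that of the most enriched overlapping peak, with a median of 2.89 (quartiles 2.30 and 3.70). That peak need not lie over the stop codon. It lay beside the stop codon, which another replicate 2 peak covered, in Bcl11b, Grin2b, Gli3, Nr4a3 and Cux1, among others. The same held for Rbm15b, Kcng3, Efna5, Notch1 and Notch2. In Znrf3 it did not reach the stop codon printed above. The replicate 2 values of these genes given below are therefore not values over the stop codon. Replicate 1 values ran from 1.26 to 11.1 and replicate 2 values from 1.48 to 19.7. The replicate 1 value was the higher in 198 peaks (24.2%), and the log2 ratio of replicate 1 over replicate 2 had a median of −0.28 and a SD of 0.48. Across these 818 peaks, which are not independent replicates, Spearman's rho between the replicates was 0.597. Both values were 4 or more in 61 peaks (7.46%) against 749 (8.95%) of all shared peaks.

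**Figure D3:**
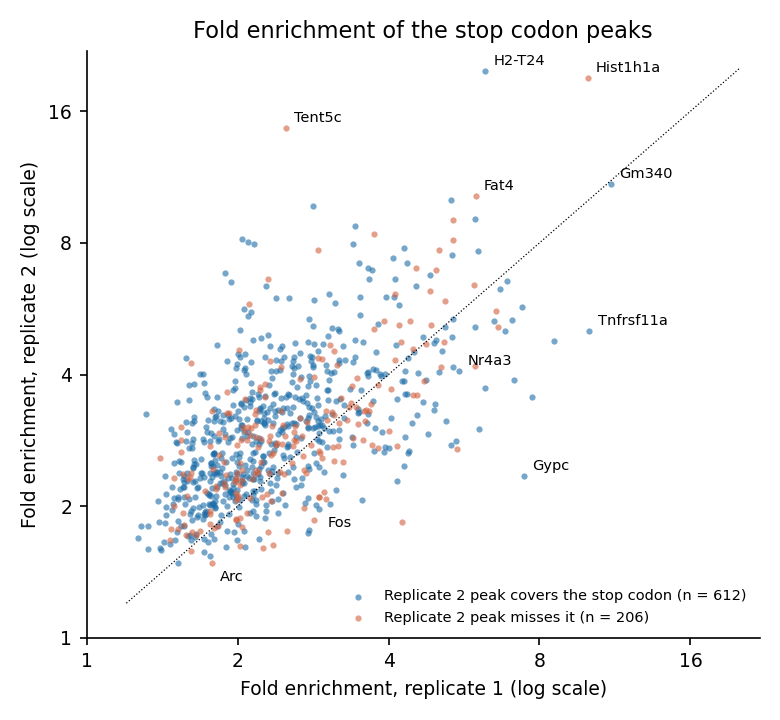
Fold enrichment of the 818 peaks in replicate 1 (x axis) and replicate 2 (y axis), both on log scales, with the diagonal of equal values and some of the genes named in the text marked. The replicate 2 value is that of the most enriched overlapping peak. Most points lie above the diagonal, as replicate 1 was the higher in 198 peaks.

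Set beside other shared peaks, the order of the medians depended on the replicate and the width: stop codon peaks were between those of coding sequence and those of 3′ UTR in replicate 1, and above both in replicate 2. The 2970 shared peaks wholly in coding sequence had medians of 2.33 and 2.81 in replicates 1 and 2, and the 1613 wholly in 3′ UTR had 1.99 and 2.66. Within a width of 200 to 400 bp, the 154 stop codon peaks had medians of 1.93 and 2.38, those of coding sequence 2.12 and 2.68, and those of 3′ UTR 1.84 and 2.53. Narrow stop codon peaks were thus below coding peaks of like width in both replicates, and above 3′ UTR peaks in replicate 1 but below them in replicate 2. At 800 bp and above the medians were 2.52 and 3.24 for 413 stop codon peaks, 2.56 and 3.10 in coding sequence, and 2.31 and 3.01 in 3′ UTR. The order of stop codon and coding peaks differed there between the replicates. In replicate 2 the highest of all overlapping peaks was taken, and 149 stop codon peaks had 2 of them and 53 had 3 or more. The values of replicates 1 and 2 are thus unlike measures, and the part of this in the order was not tested. No test was made since peaks are not replicates.

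**Figure D4:**
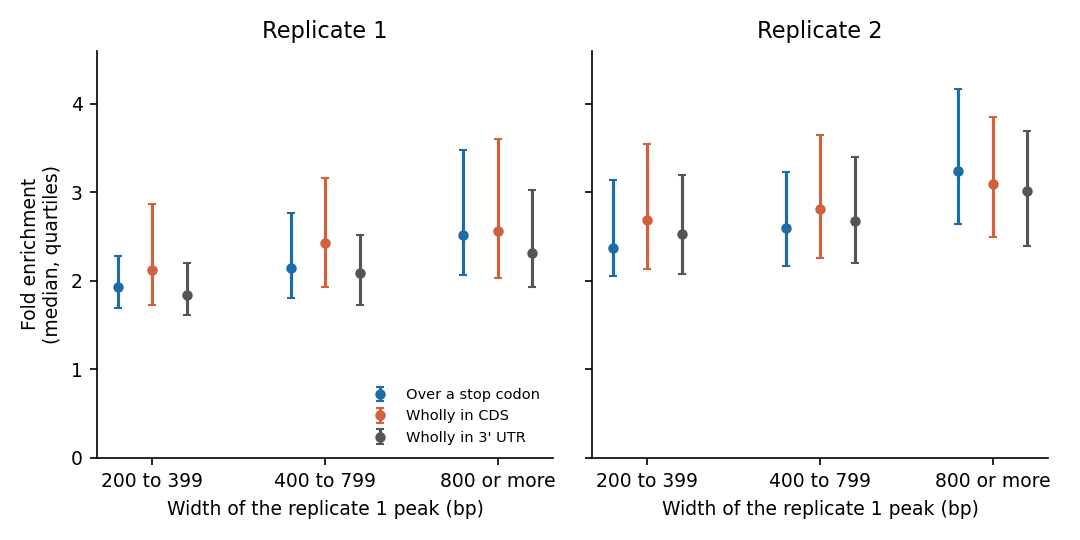
Median fold enrichment by peak width for shared peaks over a stop codon, wholly in coding sequence and wholly in 3′ UTR, in each replicate. The replicate 2 value is that of the most enriched overlapping peak. Stop codon peaks of 200 to 400 bp are at 1.93 and 2.38 and those of 800 bp and more at 2.52 and 3.24.

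The values differed with where the midpoint lay, and so did width, since a peak centred further from the stop codon must be wider to reach it. The 223 peaks centred more than 100 bases upstream had medians of 2.53 and 3.06 and a median width of 1039 bp, and 63.7% kept the same stop codon in replicate 2. The 260 centred within 100 bases were at 2.1 and 2.65, with a median width of 474.5 bp and the same stop codon in 81.2%. The 335 centred further downstream were at 2.26 and 3.0, with 978 bp and 77.3%. Peaks centred on the stop codon were the narrowest and the least enriched of these classes, and the class centred in coding sequence lost the stop codon most often. Stop codon peaks of 200 to 400 bp had medians of 1.93 and 2.38, and those of 800 bp and above 2.52 and 3.24. Position and width were thus not separated here, and the part of width was not tested.

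The most enriched members, ranked by the mean log2 fold enrichment of both replicates, included genes of the cell surface, of extracellular matrix and of chromatin. Hist1h1a, a linker histone whose mRNA ends in a stem-loop rather than a poly(A) tail, had 9.99 in replicate 1 and 19.0 in replicate 2 at chr13:23763739-23764380. Its replicate 2 peak stopped short of the stop codon printed above. H2-T24, a class Ib major histocompatibility gene, had 6.24 in replicate 1 at chr17:36005324-36007258. Its replicate 2 value of 19.7, the highest of all 818 peaks, came from a far longer peak of 8281 bp (chr17:35998982-36007262). Gm340, a predicted gene, had 11.1 and 10.9 under a peak of 7167 bp that covered all 3726 bases of its annotated coding sequence. No start codon is annotated under that peak, or the rule would have left it out, and the transcript has no annotated 3′ UTR. Its annotated reading frame may therefore be incomplete. The Hist1h1a peak covered 617 of 639 coding bases, so these 2 peaks extended over nearly all of the annotated coding sequence. That of H2-T24 covered 51 coding bases and all 1041 bases of the 3′ UTR.

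Among surface and matrix genes, Fat4, an atypical cadherin of planar polarity, had 5.96 and 10.2 and lost the stop codon in replicate 2. Fbn2, a fibrillin of elastic fibres, had 5.32 and 10.0 under 827 bp centred 14 bases upstream of the stop codon. Frem2, a basement membrane protein, had 6.88 and 6.55, and only the first base of its stop codon was inside the replicate 2 peak. Of these 3, Fbn2 had the peak most centred on the stop codon, and both replicates covered it.

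Receptors, a receptor regulator and a channel were also among them. Htr4, a serotonin receptor, had 5.96 and 9.05, with 1533 bases of 3′ UTR and 81 coding bases under the replicate 1 peak. Tnfrsf11a, the receptor for RANK ligand, had 10.1 and 5.02, and Znrf3, a ubiquitin ligase that removes Frizzled receptors from the surface, had 6.04 and 7.68. Kcnb2, a delayed rectifier potassium channel, had 5.38 and 9.03, and its replicate 2 peak ended 43 bases before the stop codon. Of the 9 genes named in this ranking with an annotated 3′ UTR, 6 therefore had the stop codon under peaks of both replicates.

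Immediate early genes had the highest share of stop codon peaks among the lists of genes that were read. A shared exonic peak was present in 19 of 22 (86.4%) and a stop codon peak in 10 of 22 (45.5%), where 11.7% and 3.59% of all coding genes had one. The lists and the choice to describe this one were made with results of these data known, so the share is a description. In 7 of the 10, replicate 2 covered the same stop codon.

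Enrichment varied among the nuclear receptors and AP-1 factors of the list. Nr4a3, an orphan nuclear receptor, had 5.54 in replicate 1 and 4.07 in replicate 2, and its relative Nr4a2 had 2.1 and 3.04 without the stop codon in replicate 2. Fosl2 had 3.87 and 3.97 under a peak of 5251 bp that covered 4607 of 4653 bases of its 3′ UTR, so that nearly the whole of that UTR was one region. Fosb had 3.39 and 4.28, Fos 2.91 and 1.97, and Jun, with which Fos proteins form AP-1, 1.47 and 1.77, the lowest of the 10 by the mean log2 value.

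The other members of the list were less enriched than Nr4a3, Fosl2 and Fosb. Homer1, a postsynaptic scaffold, had 1.74 and 2.96. The zinc finger factors Egr3 and Egr4 had 1.64 and 1.70 and 1.61 and 1.67, and Arc, which acts in synaptic plasticity, had 1.78 and 1.48. Arc and Jun, like Nr4a2, lost the stop codon in replicate 2.

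**Figure D5:**
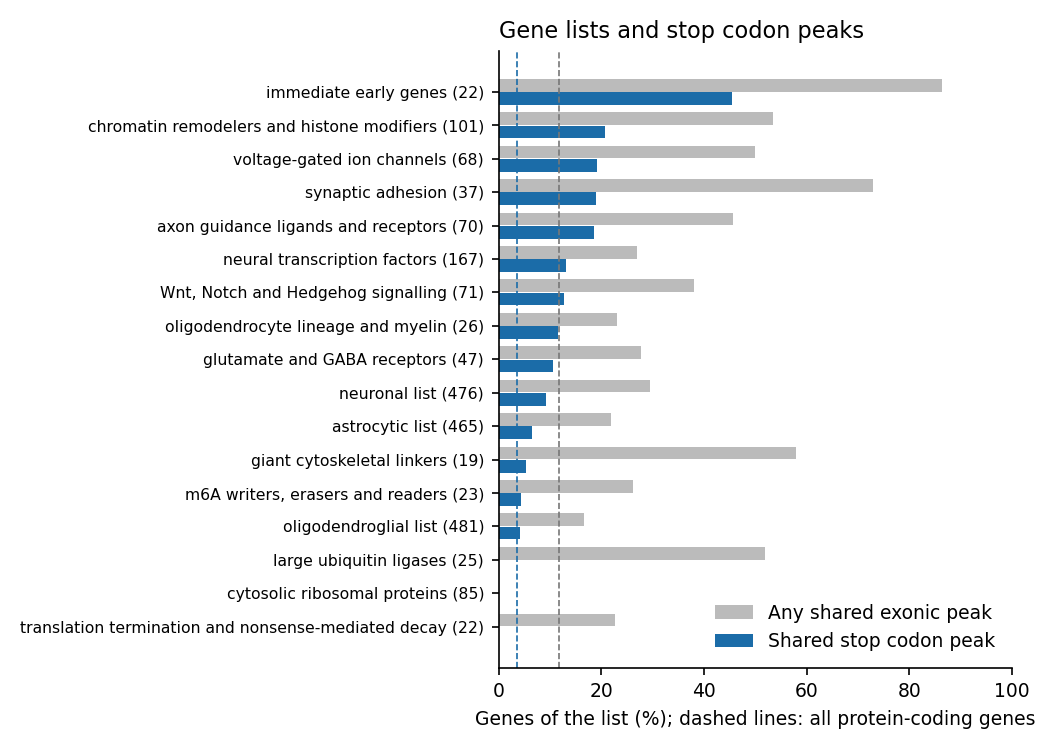
Share of the genes in each list (percent) with any shared exonic peak and with a shared stop codon peak. Immediate early genes are highest for both, at 86.4% and 45.5%, and the cytosolic ribosomal proteins are at 0.

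Stop codon peaks were also found in transcription factor and chromatin genes. Of 167 neural transcription factors, 45 had a shared exonic peak and 22 (13.2%, beside 3.59% of all coding genes) a stop codon peak. The 22 were 48.9% of those with a shared exonic peak, beside 30.8% over all genes. In 16 of the 22 replicate 2 covered the same stop codon. Differences between lists were not tested. Among the more enriched were Cux1 with 3.64 and 7.03, Klf8 with 5.34 and 2.76, and Bcl11b with 3.02 and 4.07. Cux1 and Bcl11b are markers of cortical projection neurons, and the peaks over their stop codons were long, at 7157 and 5754 bp, with most of the covered bases in the 3′ UTR.

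Chromatin remodelers and histone modifiers had stop codon peaks in 21 of 101 genes (20.8%, beside 3.59% of all coding genes). The 21 were 38.9% of the 54 with a shared exonic peak, beside 30.8% over all genes. Of these 21, 19 kept the stop codon in replicate 2, where 74.8% of all 818 peaks did. Tet1, which oxidises methylcytosine in DNA, had 7.06 and 5.32, and Tet2 had 3.03 and 3.50. The histone deacetylase Hdac9 had 2.79 and 3.87 under only 307 bp, and the histone methyltransferase Setd1b had 2.86 and 3.19. This list thus held both narrow and wide peaks.

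Signalling genes were read in 2 lists. Of 71 genes of Wnt, Notch and Hedgehog signalling, 9 (12.7%, beside 3.59% of all coding genes) had a stop codon peak, 8 with the same stop codon in replicate 2. The 9 were 33.3% of the 27 with a shared exonic peak, beside 30.8% over all genes. Gli3, a transcription factor of Hedgehog signalling, had 6.83 and 5.02, the Wnt receptor Fzd5 5.91 and 6.42, and the receptors Notch2 and Notch1 3.43 and 4.38 and 3.04 and 3.88. Fzd5 was the member whose stop codon was missed in replicate 2, by 60 bases. Of 70 axon guidance genes 13 (18.6%) had a stop codon peak, 9 of them with the same stop codon in replicate 2. The 13 were 40.6% of the 32 with a shared exonic peak. The most enriched were Epha6 with 3.63 and 4.06, its ligand family member Efna5 with 2.97 and 4.71, the netrin receptor Unc5d with 4.04 and 3.18, and the semaphorin Sema4b with 2.83 and 4.20.

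Channels and receptors of neurons had stop codon peaks as well. Voltage-gated channels had 13 of 68 (19.1%, beside 3.59% of all coding genes). The 13 were 38.2% of the 34 with a shared exonic peak, beside 30.8% over all genes. The same stop codon lay under a replicate 2 peak in only 5 of the 13, beside 74.8% over all 818 peaks. Besides Kcnb2, the potassium channel genes Kcnh5 with 3.75 and 8.36, Kcng3 with 5.11 and 4.54 and Kcng1 with 2.89 and 7.72 were the most enriched, and of these Kcng3 kept the stop codon. Synaptic adhesion genes had 7 of 37 (18.9%) and kept 1, Cntnap5a, with 2.52 and 3.05. The 7 were 25.9% of the 27 with a shared exonic peak. Tenm3 had 2.34 and 3.06, Slitrk5 2.31 and 2.38 and Lrrtm4 1.89 and 2.21, and in Tenm3 and Lrrtm4 the replicate 2 peak lay upstream.

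Of 47 glutamate and GABA receptor genes 5 (10.6%, beside 3.59% of all coding genes) had a stop codon peak. They were 38.5% of the 13 with a shared exonic peak, beside 30.8% over all genes. All 5 kept the stop codon in replicate 2. Over all 818 peaks 74.8% did, and differences between such short lists were not tested. These were glutamate receptor genes. Grin2a had 2.59 and 4.38, Grin3a 2.38 and 4.07, and Grin2b 1.64 and 3.80, all subunits of the NMDA receptor. The kainate receptor Grik3 had 1.80 and 3.20, and the metabotropic receptor Grm5 1.76 and 2.28. In Grin2b the replicate 1 peak ran over 20748 bp and covered 18781 of the 18865 bases of its 3′ UTR, while 17 separate replicate 2 peaks overlapped it, so the boundaries of such a region depended on the replicate.

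Among genes that act on m6A or at the stop codon itself, 1 had a shared stop codon peak. Lists this short do not allow a comparison with the 3.59% of all coding genes. Of 23 m6A writers, erasers and readers, 6 had a shared exonic peak and 1 (4.35%) a stop codon peak, Rbm15b, an adaptor of the methyltransferase complex, with 2.51 and 2.73 at chr9:106881000-106884805. Zc3h13, Virma, Alkbh5 and Prrc2b had a stop codon peak in replicate 2 only. Of all 21951 coding genes, 1249 had a stop codon under a replicate 2 peak. Of 22 genes of termination and nonsense-mediated decay, 5 had a shared exonic peak elsewhere and none a stop codon peak in either replicate. Smg1, with 7 shared peaks, and Smg6, with 2, were among them.

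Of 26 genes of the oligodendrocyte lineage and myelin, 6 had a shared exonic peak and 3 (11.5%, beside 3.59% of all coding genes) a stop codon peak. They were transcription factors: Sox9 had 2.44 and 3.31, Zfp488 2.07 and 3.51, and Zeb2 2.18 and 1.90. Zeb2 alone kept the stop codon in replicate 2, and that stop codon belongs to a short isoform of 660 coding bases. Olig2 and Nkx2-2 had shared peaks elsewhere, Mbp had a stop codon peak in replicate 1 only, and Tcf7l2 and Gpr17 in replicate 2 only. In lists of cell type genes that were not chosen on these samples, 20 of 481 oligodendroglial genes (4.16%), 30 of 465 astrocytic genes (6.45%) and 44 of 476 neuronal genes (9.24%) had a stop codon peak, which was 25%, 29.4% and 31.4% of those with any shared exonic peak, beside 30.8% over all genes. Presence of a peak is not a level of expression: of 31 markers of brain and other cell types read as a check, Slc1a2 and Olig2 alone had a shared exonic peak and none had a stop codon peak, so the lists do not show which cells the RNA came from.

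None of 85 cytosolic ribosomal protein genes had a shared exonic peak. Their transcripts are short, with medians of 453 coding bases and 87 bases of 3′ UTR. Giant cytoskeletal linkers, which are long, had stop codon peaks in 1 of 19 genes (5.26%, beside 3.59% of all coding genes), Plec with 1.87 and 3.0, although 11 had a shared exonic peak. Of 25 large ubiquitin ligases 13 had a shared exonic peak and none a stop codon peak. Over all genes with a shared exonic peak, 30.8% had a stop codon peak.

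Genes with a stop codon peak had long last exons and long 3′ UTRs. Reference transcripts of the 788 genes that own the stop codons had a median 3′ UTR of 2357.5 bases, against 1742.5 in the 1772 other genes with a shared exonic peak and 778 in all 21674 genes. Their coding sequence was shorter than that of the other targets, at 1846.5 against 2298 bases, and longer than the 1170 of all genes. The last exon had 3121.5 bases against 2332 and 1175, and the stop codon lay 359 bases behind the last exon junction against 187 and 168. The part of length in where peaks fall was not tested.

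Stop codon use was like that of other genes. UGA ended 411 reading frames (52.2%), UAG 198 (25.1%) and UAA 179 (22.7%), where other targets had 51.9%, 22.2% and 25.8% and all genes 49.3%, 22.8% and 27.9%. GGAC, searched on the transcript strand only, occurred within 100 bases of 499 of 756 stop codons (66.0%), against 62.7% in other targets and 58.7% in all genes. With GGACT, of which GGAC is a part, the shares were 27.2%, 24.9% and 23.2%, and DRACH was in 98.3%, 98.9% and 98.9% and told nothing apart. G and C made up 54.8% ± 7.61 (SD over genes) of the 100 bases before these stop codons and 52.5% ± 10.3 of the 100 after, against 52.7% and 49.8% in other targets, which moves in the same direction as GGAC; its part was not tested. Along 664 member transcripts GGAC fell from 6.54 per 1000 bases at 50 to 100 bases upstream to 4.91 at 50 to 100 bases downstream and 3.07 at 350 to 400, and other targets fell from 5.59 to 4.68 and 2.94.

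Few of these genes had the stop codon as their only site. A shared peak elsewhere was present in 664 of 787 genes, and 123 (15.6%) had the stop codon peak alone. Further peaks lay wholly in coding sequence in 403 genes, wholly in 3′ UTR in 371 and over a start codon in 347. In 31 genes 2 peaks met the rule. Adra1a, an adrenergic receptor, had 7.11 and 3.89 over one stop codon and 2.69 and 2.90 over that of another isoform. Sh3rf3 had 2.83 and 9.73 and 3.24 and 4.65, Zswim9 3.40 and 7.96 and 2.16 and 7.96 with the same replicate 2 peak under both, and Itpripl1 4.09 and 6.02 and 3.0 and 3.30.

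Some members differed strongly between replicates. Tent5c, a poly(A) polymerase, had 2.49 in replicate 1 and 14.7 in replicate 2, the mediator subunit gene Med13l 2.04 and 8.16, and Igsf3 2.1 and 8.03. In the other direction, Gypc, a membrane glycoprotein of red blood cells, had 7.44 and 2.34, the kinase gene Cdk12 4.25 and 1.84, and Gm6569 7.72 and 3.55. These 6 are the extremes of the log2 ratio, from −2.56 to 1.67. The replicate 2 value is that of the most enriched overlapping peak, which in Tent5c, Med13l and Cdk12 did not lie over the stop codon. The ratio therefore does not always compare the same stretch of RNA. The overlap rule was met most narrowly by Xkr6, with 18 bases shared and values of 2.44 and 4.17, and Ppm1h, with 20 bases and 1.54 and 3.03. Just outside it were Gdf11, whose replicate 1 peak of 1.52 ended 29 bases from a replicate 2 peak of 3.21, and Sertad1, with 1.88 and 2.03 and 87 bases between.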

How the data were processed

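Prrc2a RIP-seq of whole brain was analysed from 2 peak lists, 1 per replicate. Per the submitters' processing notes the authors used TopHat2 2.0.9 and MACS2 2.0.10 with mm10; the methods describe a mapping quality minimum of 20, unique alignments and calls under an FDR of 0.05, and name other versions. The values the authors deposited are peak positions and a fold enrichment, a linear ratio over a control that is not named. Read totals are not used here, so depth and counting error are unknown. Overlaps, offsets and motifs were computed with Python 3.11.15 and numpy 2.4.6 on GENCODE release 21 annotation and transcripts, and drawn with matplotlib 3.10.9. The reference transcript of a gene was the APPRIS principal one, then the one with a CCDS, then the longest coding sequence. For a chosen peak it was taken only among transcripts whose stop codon the peak overlapped, those of its gene first. It can thus be another isoform than the one taken over all coding transcripts of a gene. Sequence windows came from that annotation's transcripts.

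Members and gene lists were chosen with earlier results of these data known. Named genes were the 10 most enriched, up to 4 to 6 per list (all for the m6A, termination and oligodendrocyte lists), the 3 most unequal between replicates each way, the 2 nearest the overlap limit on each side and the 4 most enriched with several peaks; all 10 immediate early genes were named after their values were seen. No test was made, since there was 1 condition and peaks are not replicates. Alternatives changed the overlap, the fold enrichment, the replicate, the annotation, the window and the motif. Tested on simulated data, the scripts recovered all 6 planted quantities exactly. Some results are not reported here.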

Additional observations from a re-analysis of the deposited data

How the results depend on the processing

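An overlap of 50% of both peaks left 452 peaks in 439 genes and raised the share with the same stop codon in replicate 2 to 83.4%. Asking for a 4-fold enrichment in each replicate left 61 peaks in 61 genes, with medians of 5.11 and 5.32 by construction. The midpoint lay downstream in 49.2% and GGAC occurred in 58.6%, beside 58.7% of all genes. At that level the majority downstream and the excess of GGAC over all genes were lost, and the cause was not tested. The same stop codon lay under a replicate 2 peak of at least 4-fold in 49.2%. Weaker replicate 2 peaks over the stop codon were not counted there, so this share cannot be compared with the 74.8% of the main rule. Without replicate 2 or replicate 1 the rule gave 1090 to 1295 peaks in 1037 to 1245 genes, since no overlap was asked, GGAC in 64.8% to 66.4%, and coverage of the stop codon in 11.1% to 13.3% of transcripts against 6.77% in both. The share with GGAC followed the window and motif: 41.6% within 50 bases, 85.3% within 200 bases, 27.2% for GGACT and 98.3% for DRACH. Transcripts with at least 500 bases on each side had 4.29% of stop codons covered in both replicates. Of the recomputed values 34 stayed within the limit set for them and 28 moved further. The limit was 1.5 times for counts and the SD of 2 values for shares and medians. These were 1 value per replicate, except in 2 cases. For fold enrichment they were the unlike measures of replicates 1 and 2, and for the same stop codon the 2 directions of reading. In those cases the limit is not a spread between replicates. Among the 34 were the 787 peaks counted from replicate 2, the 925 with start codons kept and the 741 over principal stop codons. Taking the replicate 2 peak with the largest overlap, an alternative chosen after seeing the data, gave a median of 2.82. No paired analysis was possible because there is 1 group. Depth limits all values, as too few reads and no binding would both leave a stop codon bare.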
